A study of Mus musculus with 4 samples.

Results

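U11 RNA, the product of Rnu11, and 8 genes for proteins of the U11/U12 particle were examined in testes of mice at postnatal day 17, so that 9 of the 54232 genes in the gene table are described here. The 9 were found by symbol: Rnu11, Snrnp25, Snrnp35, Snrnp48, Rnpc3, Zmat5, Pdcd7, Zcrb1 and Zrsr2. Rnu11 was chosen by its measured rise between the same libraries that are described here, so its difference between the groups is given as a description without a test. The protein genes were taken because they belong to the same particle. RNA had been sequenced from 2 control libraries (genotype label Dis3 WT) and 2 libraries of mice in which Dis3 was knocked out (Dis3 KO), all of the strain labelled B6D2F1 inbred. The DIS3 protein is a catalytic subunit of the RNA exosome, which trims and degrades RNA from its 3′ end. The sources used here do not give the allele, the Cre driver or the number of animals per library. P-values therefore measure the spread between these libraries, which may be technical.

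The U11 particle belongs to the minor spliceosome, which removes a rare class of introns called U12-type introns. U11 RNA pairs through its 5′ end with the start of such an intron, U12 RNA pairs with the branch site, and the proteins hold both in a single U11/U12 particle before U4atac, U6atac and U5 join. Like other spliceosomal RNAs made by RNA polymerase II, U11 is cut at its 3′ end by the Integrator complex, carries a ring of Sm proteins, and is trimmed to its mature end.

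The sequences that carry these contacts are shown first, because the RNA and some of its protein partners hold both sides of the same pairing. Rnu11 (ENSMUSG00000077323) lies at chr4:132270080-132270213 on the minus strand of GRCm38 and is annotated as a single exon of 134 bases. Its sequence, from the GENCODE M21 transcript and written with T for U, has 52.2% G and C. Capitals mark positions 4 to 7, which are complementary to the CCTT of a U12-type intron start, and positions 88 to 96, the stretch rich in T that the Sm ring binds.
Rnu11: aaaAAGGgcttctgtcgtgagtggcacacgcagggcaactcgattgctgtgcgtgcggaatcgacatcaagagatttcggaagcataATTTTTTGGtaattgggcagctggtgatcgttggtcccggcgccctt

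Pairs of a U12-type intron start within a transcript are known to bind U11 and to control 2 of the protein genes, Snrnp48 and Rnpc3. A pair was found on the sense strand of both, with each TATCCTT in capitals. In Snrnp48 the pair spans chr13:38214669-38214693 on the plus strand, in an exon of a transcript without coding sequence that lies inside an intron of a coding transcript. In Rnpc3 it spans chr3:113607237-113607255 on the minus strand, in the 3′ UTR of 3 annotated transcripts. That stretch too lies inside an intron of a coding transcript.
Snrnp48: TATCCTTtttgcaaatgaTATCCTT
Rnpc3: TATCCTTtcttgTATCCTT
The motif starts are 18 bases apart in Snrnp48 and 12 in Rnpc3. Of the 55450 genes with an annotated transcript, 23 (0.0415%) hold TATCCTT again within 20 bases on the sense strand, and 21 (0.0379%) hold its reverse complement in that arrangement. Such pairs are therefore about as frequent on either strand, and a match describes the letters only.

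The gene table holds between 17663416 and 40329170 reads per library, and both KO libraries are the shallower ones. Of 25076 genes tested, 11.6% were higher and 20.3% lower in KO (edgeR quasi-likelihood test, adjusted p below 0.05). When libraries were scaled on genes of at least 10 CPM, 5566 genes were higher and 2978 lower, in place of 2906 and 5092, and the median log2 fold change shifted by 0.15. Dis3 fell from 80.5 ± 0.295 to 41.2 ± 2.35 CPM (SD, n = 2; adjusted p = 2.34e-09). Germ cell and somatic markers of testis were present. All 9 pachytene spermatocyte markers fell, and their summed level was 4222 and 4352 CPM in WT against 2884 and 2650 CPM in KO. All 8 macrophage markers rose, from a sum of 131 CPM in both WT libraries to 230 and 223 CPM. Of the early meiotic markers 10 of 12 fell, and of the spermatogonial ones 5 of 9. The Sertoli cell markers summed to between 5251 and 5280 CPM in WT and to between 5762 and 5853 CPM in KO, with 3 of 11 higher. Leydig cell markers went both ways, with 2 of 7 higher and 2 lower (median log2 fold change -0.14). Of 2 peritubular myoid markers 1 was higher (median 0.09). The spermatid markers stayed near 0, at 0.580 to 1.65 CPM in sum. In whole testis, fewer cells of a type and less RNA per cell cannot be told apart, and the part of these markers in the results below was not tested.

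Reads of the U11 RNA gene were higher in both KO libraries. The labels name polyA RNA and the protocols random and poly(T) primers. Which forms of U11 RNA such libraries recover was not tested. The WT libraries (replicates 1 and 2) had 139 and 217 Rnu11 reads and the KO libraries (replicates 1 and 2) had 272 and 310, although the KO libraries held fewer reads in all. Scaled for library size with TMM factors, as CPM, these are 4.70 and 5.72 CPM in WT, and 14.9 and 15.1 CPM in KO. The groups did not overlap, and both KO values lay far closer to each other than to either WT value. The mean was 5.21 ± 0.721 CPM in WT and 14.99 ± 0.0923 CPM in KO (SD, n = 2), 2.88 times as high, and the fitted log2 fold change was 1.51 ± 0.144 (SE). Among the 12554 tested genes at 5 CPM or more, 7 had a larger rise. These values picked the gene, so they are a description. No annotated gene shares the strand with Rnu11. The lincRNA gene Gm28872 covers it on the opposite strand and had 2 and 2 reads in WT, and 1 and 0 in KO. In the 3000 bases upstream, the sense reads amounted to between 0.804 and 1.21 reads per 134 bases. Reads over Rnu11 were thus far more numerous than those of the opposite strand or of an equal length of its upstream region. Bases downstream of Rnu11 were not counted, so RNA that runs past its 3′ end could not be told from U11 itself.

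**Figure D1:**
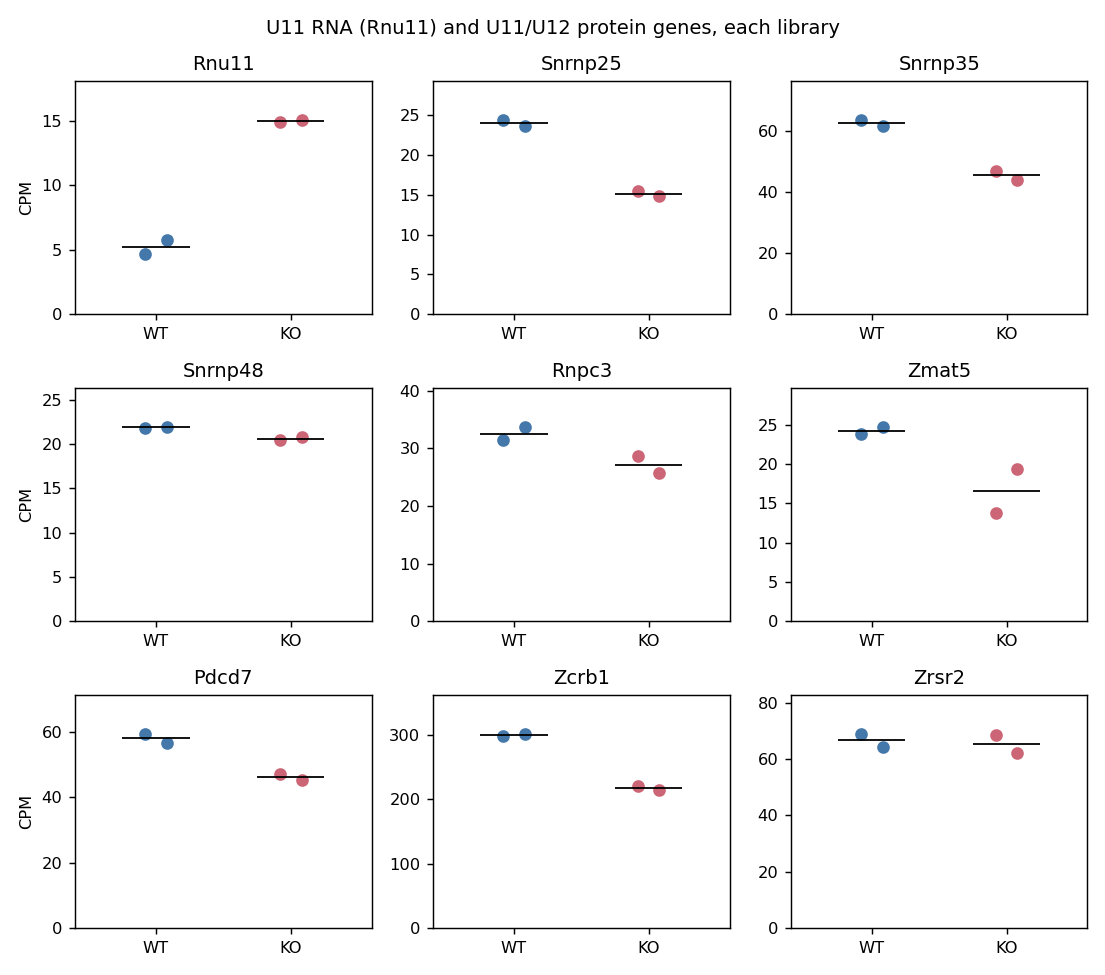
Level of each of the 9 genes in each library, in CPM on linear axes that start at 0. Points are libraries (WT blue, KO red) and black lines are group means; Rnu11 lies higher in both KO libraries, at 14.9 and 15.1 CPM, while in the 8 protein genes no KO mean lies above the WT mean.

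The protein partners did not rise with the RNA. Falls passed the test in 6 of the 8 genes and rises in 0, while 2 genes passed in neither direction, and their median log2 fold change was -0.40, beside 0.05 over all tested genes. Without adjustment, p was below 0.05 for 0 rises and 6 falls, and the share of all genes below it is not given here. DESeq2 also called 0 higher and 6 lower, while it called 443 higher and 5266 lower among the 20286 genes it tested. Both KO libraries lay below both WT libraries in 7 of the 8, an arrangement seen in 32.7% of all tested genes, and the reverse arrangement (35.6% of all tested genes) in none of the 8. Falls were common at the same level of expression. Of the 7963 genes with a mean between 19.6 and 259 CPM, the range of the 8, 45.6% fell and 8.87% rose, with a median of -0.17. The falls of the protein genes are to be read beside those shares.

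Among the proteins bound to U11 itself, Snrnp25 (chr11:32205415-32208984, plus strand) had 24.4 and 23.6 CPM in WT, and 15.5 and 14.8 CPM in KO. It encodes a small protein of the U11 particle and had the largest fall of the 8, with a log2 fold change of -0.66 ± 0.104 (adjusted p = 2.93e-05, edgeR). Snrnp35 (chr5:124483134-124491124, plus strand), whose product resembles the U1 protein encoded by Snrnp70, had 63.7 and 61.8 CPM in WT and 46.9 and 44.2 CPM in KO. Its log2 fold change was -0.46 ± 0.0737 (adjusted p = 3.64e-05, edgeR), and in both genes every KO value lay below every WT value.

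Snrnp48 (chr13:38204938-38227665, plus strand) encodes the protein that contacts the start of the U12-type intron. Its levels were 21.9 and 22.0 CPM in WT, and 20.4 and 20.8 CPM in KO. The KO libraries were lower by a margin that did not pass the test (log2 fold change -0.09 ± 0.0988, adjusted p = 0.512 by edgeR). Its sign depended on the setting, with estimates between -0.20 and 0.07.

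Pdcd7 and Rnpc3 encode the pair of proteins that bridge U11 and U12, of which the Rnpc3 product binds U12 RNA. Pdcd7 (chr9:65346104-65359643, plus strand) had 59.4 and 56.5 CPM in WT and 47.0 and 45.2 CPM in KO, for a fold change on the log2 scale of -0.33 ± 0.0744 (adjusted p = 0.00145, edgeR). Rnpc3 (chr3:113605067-113630149, minus strand) had 31.4 and 33.8 CPM in WT and 28.6 and 25.6 CPM in KO, and fell by 0.27 on the log2 scale (SE 0.0916, adjusted p = 0.0288). With the 10 CPM scaling neither passed, with adjusted p of 0.0653 for Pdcd7 (log2 fold change -0.18) and 0.341 for Rnpc3 (-0.11). Rnpc3 also missed the threshold in edgeR fits that left out WT replicate 2 (adjusted p = 0.181) or KO replicate 2 (0.114), or that used a filter of 1 CPM (0.0816). The Rnpc3 gene overlaps Amy1 on the same strand, and reads that fall in both are not counted for either.

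Zcrb1 (chr15:93386097-93398334, minus strand) encodes an RNA-binding protein of the U11/U12 particle. Its levels were 297.6 and 302.2 CPM in WT, and 220.6 and 214.9 CPM in KO. With a log2 fold change of -0.46 ± 0.0585 it had the smallest adjusted p of the protein genes (1.98e-06, edgeR). Zmat5 (chr11:4704678-4737669, plus strand), a zinc finger protein of the particle, had 23.8 and 24.8 CPM in WT, and 13.8 and 19.4 CPM in KO. The KO replicates of Zmat5 lay further apart than those of the other 8 genes relative to their mean, and its log2 fold change of -0.54 ± 0.124 (adjusted p = 0.00227, edgeR) became -0.87 without KO replicate 2 and -0.35 without KO replicate 1.

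Zrsr2 (chrX:163935443-163958661, minus strand) encodes a protein that recognises the 3′ splice site of U12-type introns. It had 69.1 and 64.2 CPM in WT, and 68.6 and 62.3 CPM in KO. The groups overlapped, and the log2 fold change of -0.03 ± 0.0728 did not pass the test (adjusted p = 0.813, edgeR). Its autosomal retrogene relative Zrsr1 had 1821 and 2167 reads in WT, and 1203 and 1134 in KO (log2 fold change 0.03 ± 0.0815, adjusted p = 0.826). The signs of both changed between settings, from -0.13 to 0.13 for Zrsr2 and from -0.13 to 0.18 for Zrsr1, and reads from stretches that the copies share are not counted.

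**Figure D2:**
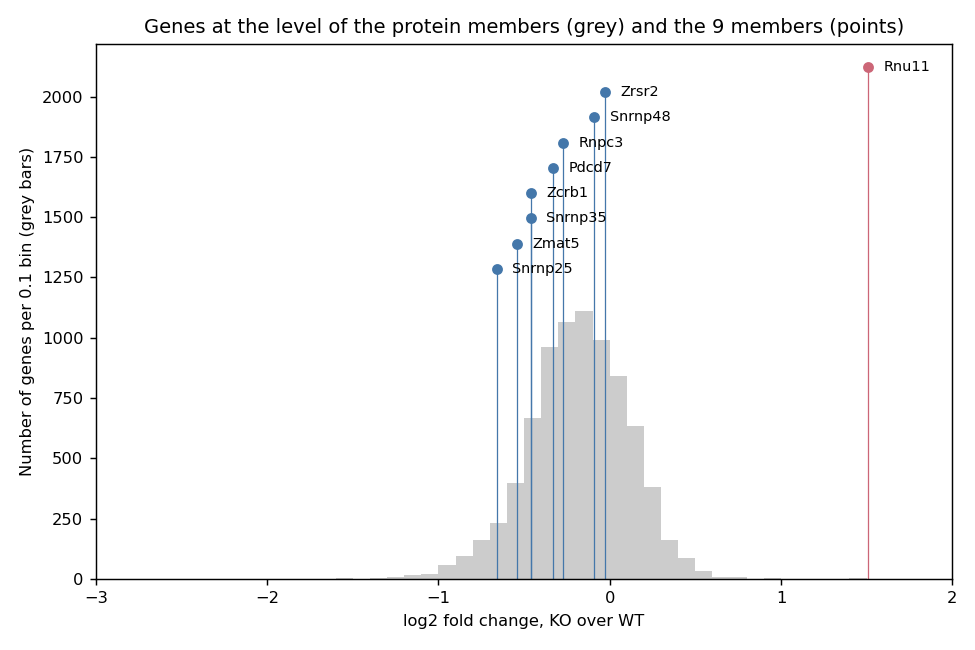
Log2 fold change (KO over WT) of the 7963 tested genes whose mean level lay within that of the protein genes, as grey bars of width 0.1 with the number of genes on the vertical axis. Lines mark the 9 genes, with point heights that carry no value; the 8 protein genes lie within the grey bars, from -0.66 to -0.03, and Rnu11, whose own level was below this range, lies at 1.51.

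Levels of different genes were compared per length, as RPKM, the CPM divided by the kilobases of annotated exon. On this scale Rnu11 was at 35.1 and 42.7 RPKM in WT, and 111 and 112 RPKM in KO. In both WT libraries it ranked below Zcrb1 and Snrnp35 and above the other protein genes, and in both KO libraries it ranked above all of them. In WT, Snrnp35 at 46.6 ± 1.04 RPKM and Rnu11 at 38.9 ± 5.38 RPKM (SD, n = 2) were neighbours in this order whose ranges did not overlap, though the highest Rnu11 value was close to the lowest Snrnp35 value. Zcrb1 stood at 97.6 ± 1.07 RPKM in WT and at 70.8 ± 1.31 RPKM in KO. Pdcd7 and Snrnp25 were next in WT, at means of 23.2 and 23.0 RPKM with overlapping ranges, followed by Zmat5 at 19.4, Zrsr2 at 9.26, Rnpc3 at 4.91 and Snrnp48 at 2.16 RPKM. Exon length counts every annotated exon, so genes with long alternative exons such as Snrnp48 come out low. Rnu11 is a short RNA and the others are messages, and whether both are recovered alike per length was not tested. The order between Rnu11 and the protein genes is therefore one of reads per length.

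The balance of reads between the RNA and the messages of its partners moved in both KO libraries. The geometric mean of the 8 protein genes was 16.2 and 16.1 RPKM in WT, and 12.6 RPKM in both KO libraries. Rnu11 stood at 2.16 and 2.65 times that mean in WT replicates 1 and 2, and at 8.83 and 8.92 times in KO replicates 1 and 2. Most of this difference lies in Rnu11, whose values picked it, so the ratio is a description too. It compares reads of a short RNA with reads of messages, which these libraries may recover unequally. It gives neither the true ratio of these RNAs nor the amount of protein.

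**Figure D3:**
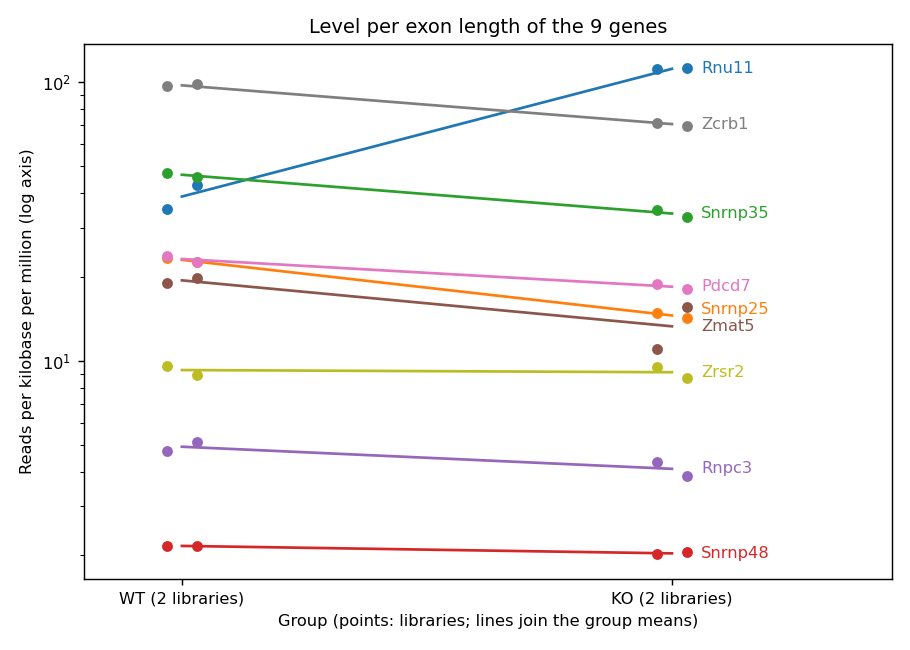
Level per exon length (RPKM, log axis) of the 9 genes in WT and KO. Points are libraries and lines join group means; the line of Rnu11 crosses those of Snrnp35 and Zcrb1, from 38.9 to 112 RPKM, while the lines of the 8 protein genes slope down or lie flat.

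Among the other minor spliceosome RNAs, Rnu12 had 3 and 4 reads in WT, and 2 and 12 in KO. Its single high value was in KO replicate 2, and it had too few reads for the test. Rnu4atac and Rnu6atac were not found by these symbols in the gene table and so were not analysed here. Among other short noncoding RNA genes, 23 rows were found and 7 of them had 0 reads in every library. The 4 that could be tested did not pass (edgeR 0, DESeq2 0, and 1 with an unadjusted p below 0.05). Rn7sk, the RNA that restrains transcription elongation, had 1293 and 1358 reads in WT and 519 and 980 in KO (log2 fold change -0.05 ± 0.349, adjusted p = 0.929). Rn7s2, an RNA of the signal recognition particle, had -0.22 ± 0.106 (adjusted p = 0.110), Terc, the telomerase RNA, 0.55 ± 0.462 (0.372) and Vaultrc5, a vault RNA, 0.19 ± 0.482 (0.791) by edgeR. The short RNA genes that could be tested were too few and, for Terc and Vaultrc5, too thinly read, at 10 to 39 reads per library, to show how common the pattern of Rnu11 was among such RNAs.

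The other genes of the pathway are given by lists, and their counts are to be read beside the 20.3% of all tested genes that fell and the 45.6% that fell at the level of the protein genes. Of 11 further minor spliceosome factors 5 fell, 0 rose and 6 did not pass (median -0.24), a share close to the second of these. Ybx1, an RNA-binding protein found with the U11/U12 particle, fell by 0.41 ± 0.0656 on the log2 scale, Cript by 0.43 ± 0.0703 and Ppil2, a prolyl isomerase, by 0.38 ± 0.0638. The helicase Dhx15 had a smaller fall (log2 fold change -0.17 ± 0.0594, adjusted p = 0.0295), as did Rbm48 (-0.24 ± 0.0811, 0.0255). The log2 fold changes of Txnl4b, Ccdc84, Scnm1, Rbm41 and Armc7 lay between -0.33 and 0.04 and did not pass, nor did that of Zrsr1 given above.

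**Figure D4:**
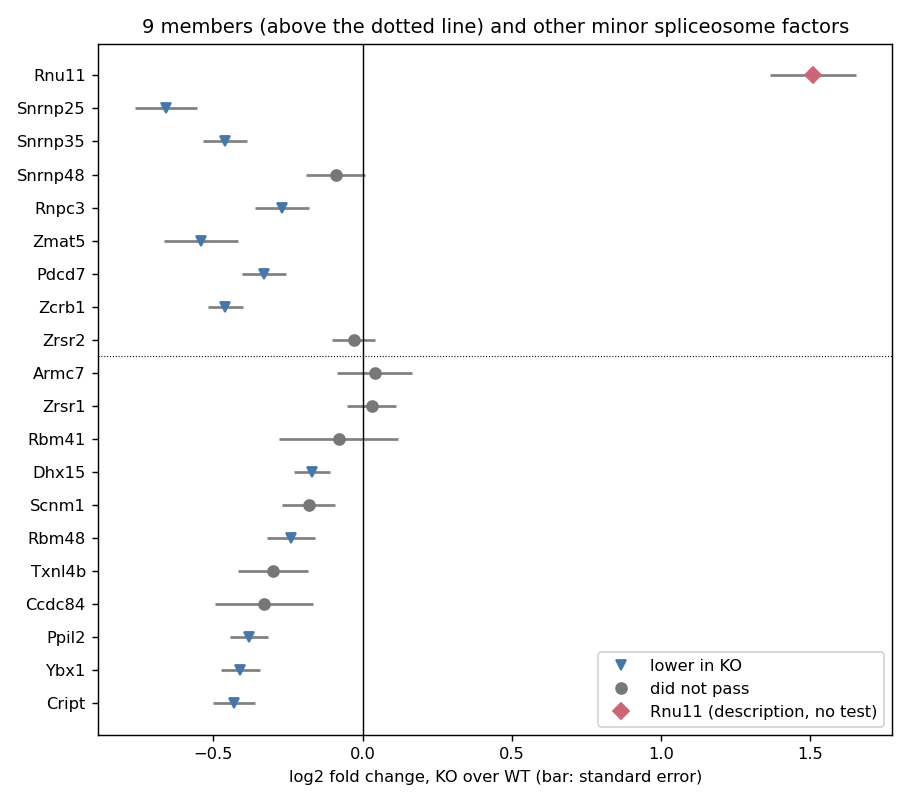
Log2 fold change (KO over WT) with its standard error for the 9 genes, above the dotted line, and 11 other minor spliceosome factors. Blue triangles passed the edgeR test as lower and grey circles did not pass; the red diamond, Rnu11, lies at 1.51, and no other point lies above 0.04.

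Other lists hold proteins that the minor spliceosome shares with the major one, and those of the major particles. In none of them did a gene pass as higher, and each has genes that did not pass. Of the SF3b proteins, which hold the branch site, 4 of 7 fell (median -0.24), with Sf3b1 at -0.38 ± 0.0606, Sf3b2 at -0.36, Sf3b4 at -0.28 and Sf3b3 at -0.21. Of the proteins of the U4/U6.U5 particle 11 of 14 fell (median -0.29), among them Prpf3 (-0.48 ± 0.0631), Snrnp40 (-0.43), Snrnp27 (-0.41) and Usp39 (-0.38). Of the Sm proteins, whose ring also sits on U11, 7 of 8 fell (median -0.32), with Snrpd2 at -0.56 ± 0.101, Snrpe at -0.54 ± 0.108, Snrpf at -0.37 and Snrpb at -0.36. Proteins of the major U1 and U2 particles, which U11 and U12 replace, fell in 9 of 10 cases (median -0.29), including Snrpc (-0.48), Snrpa1 (-0.37), Snrpa (-0.34) and Snrnp70 (-0.30). Over all tested genes the median was 0.05 and 20.3% fell, and at the level of the protein genes the median was -0.17 and 45.6% fell. No difference between the lists, or between a list and other genes, was tested.

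Genes that make and mature such RNAs were listed as well. In the list for transcription and 3′ end cleavage of these RNAs, 13 of 19 fell, 0 rose and 6 did not pass (median -0.28). The named genes of this list are Integrator subunits, with Ints10 at -0.83 ± 0.0678 and Ints11, the catalytic subunit, at -0.68 ± 0.105, beside Ints13 at -0.54 and Ints1 at -0.35. In the list for export, assembly and trimming 9 of 18 fell, 0 rose and 9 did not pass (median -0.25), near the 45.6% of genes that fell at the level of the protein genes. Snupn, the import adaptor for Sm particles, was at -0.71 ± 0.0932, Coil, the scaffold of Cajal bodies, at -0.60, Larp7, which binds Rn7sk, at -0.59 and Ncbp1, a subunit of the cap-binding complex, at -0.57. Over these 87 genes in all lists other than the short RNAs, 58 fell and 0 rose, with a median of -0.28. Among all tested genes 20.3% were lower and 11.6% higher, and at the level of the protein genes 45.6% and 8.87%. Unadjusted, p was below 0.05 for 63 falls and 0 rises, and the share of all genes below it is not given here. DESeq2 called 60 lower and 0 higher, beside 5266 and 443 among the 20286 genes it tested. With the 10 CPM scaling 34 fell and 2 rose, beside 2978 and 5566 among all 25076 tested genes. Neither the adjusted p of a single gene nor these counts compare the lists with other genes.

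Targets of U11 are U12-type introns, and the messages that hold one were followed through their gene counts, which do not measure splicing. No genome sequence of the build was used here. Introns were read from other transcripts that cover them, which was possible for 15381 of 285926 annotated introns, in 6914 of 33244 genes. Among these, 54 introns (0.351%) in 46 genes begin with ATATCCTT or GTATCCTT and end in AC or AG, 14 beginning with AT and 40 with GT. In 5 of them TTCCTTAA, a branch site motif, lies within the last 40 bases. The starts and ends of such introns are shown for the hosts at 5 CPM or more that are named next and for Snrnp48, with the motif and the last pair of bases in capitals, because CCTT is the stretch that pairs with U11.
Tcea2, start, chr2:181686247-181686597, plus strand: ATATCCTTtgta
Tcea2, end: aacctcaggtgggtccttaaacacctgcAC
Exosc5, start, chr7:25664449-25665420, plus strand: GTATCCTTtccc
Exosc5, end: cactctccttaaccagtctgtgatgcccAG
Spc24, start, chr9:21757395-21757684, minus strand: ATATCCTTtgct
Spc24, end: tgtctgagccttggccttaacccagtgcAC
Spc24, start of a further intron, chr9:21756296-21757116, minus strand: GTATCCTTtgag
Spc24, end of that intron: gaaaacactttcctttcatctcgtcctcAG
Myh9, start, chr15:77791147-77791715, minus strand: GTATCCTTatgg
Myh9, end: atgtcgtgtcactctttaacctacccaaAG
Snrnp48, start, chr13:38214668-38215063, plus strand: GTATCCTTtttg
Snrnp48, end: tccaaccccttgaccagtaacaatgtccAG
The first motif of the Snrnp48 pair shown above is the start of this annotated intron of 396 bases. Snrnp48 is thus among the hosts by the letters at the intron's ends, without the branch motif. Whether the minor spliceosome removes this intron was not tested.

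Of the 46 host genes 45 were tested, and 16 (35.6%) fell while 2 (4.44%) rose, with a median log2 fold change of -0.18. With the 10 CPM scaling 10 fell and 4 rose, beside 2978 lower and 5566 higher among all 25076 tested genes. Without that scaling, 31.1% of all 6509 tested genes with an intron that could be read fell and 9.88% rose, with a median of -0.08. Tcea2, a transcription elongation factor gene, fell by 0.85 ± 0.0714 on the log2 scale (adjusted p = 7.75e-09, edgeR). Exosc5, a core subunit of the RNA exosome, followed at -0.66 ± 0.0889 (adjusted p = 3.69e-05) and Spc24, a kinetochore protein, at -0.59 ± 0.136 (adjusted p = 0.00190, edgeR). Myh9, a nonmuscle myosin, was the only host above 5 CPM that rose (0.18 ± 0.0665, adjusted p = 0.0380), and it lost its call in 6 of 10 alternatives. Scn9a, a sodium channel gene below 5 CPM that was named after its values were seen, was the other one (0.96 ± 0.340, adjusted p = 0.0350, edgeR).

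The 3000 bases upstream of a gene had been counted on both strands, and 5 of the 9 genes had such a region, none of them overlapping another annotated gene. In the region of Rnu11 (chr4:132270214-132273213) there were 22 and 18 sense reads in WT, and 27 and 22 in KO. On the antisense strand there were 21 and 17 reads in WT, and 24 and 27 in KO. The reads per library were therefore similar, while the KO libraries were smaller. The log2 fold changes were 1.07 ± 0.420 for sense (adjusted p = 0.117) and 1.19 ± 0.428 for antisense (adjusted p = 0.0682, edgeR). Such positive values were general, with a median of 0.93 over all sense regions and 1.01 over all antisense regions. Adjusted p was below 0.05 in 0.0598% of sense and 11.6% of antisense regions, and in 0 of the 10 regions of the 5 genes. Unadjusted, 6 of the 10 were below 0.05, and all 10 estimates were positive. The share of all upstream regions below 0.05 unadjusted is not given here, so the 6 cannot be set beside it. When the upstream counts were scaled by their own totals and TMM factors, which takes out the general gain, 0 of the 10 were below 0.05 unadjusted and 5 were negative, and Rnu11 had 0.22 for sense and 0.28 for antisense. With WT replicate 1 left out, 2 antisense regions passed, those of Rnu11 (1.54, adjusted p = 0.0240) and Snrnp48 (1.91, adjusted p = 0.0374, edgeR).

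The upstream regions of the protein genes were read as thinly. Snrnp48 had 12 and 8 antisense reads in WT and 18 and 13 in KO (log2 fold change 1.40, adjusted p = 0.102), and Snrnp25 had 34 and 38 in WT and 35 and 38 in KO (0.81, adjusted p = 0.0901, edgeR). Snrnp35 had 23 and 33 antisense reads in WT and 25 and 29 in KO, and Zrsr2 had 25 and 27 in WT and 21 and 26 in KO. A gain at these depths could not be told from the general one. Next to Rnu11, on the same chromosome, Taf12, a subunit of the general transcription factor TFIID, fell (log2 fold change -0.46, adjusted p = 1.62e-05), and the long noncoding RNA gene Gm28874 had 0.18 and did not pass (adjusted p = 0.796, edgeR).

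The genes whose levels over the 4 libraries ran closest to those of Rnu11 were found by Euclidean distance of centred log2(CPM + 0.5) among 12553 genes at 5 CPM or more. They were Frmd4b (distance 0.187), the collagen genes Col9a2 (0.209) and Col11a1 (0.324), Gprin3 (0.314) and Stc1, which encodes the hormone stanniocalcin (0.345). Their log2 fold changes lay between 1.16 and 1.39. With 4 libraries this likeness mostly repeats the difference between the groups, which picked them. None of the 5 is a spliceosome or small RNA gene.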

How the data were processed

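Strand-selected, transcript-depleted libraries from P17 testes were primed with random and poly(T) primers, per the labels' protocols; the labels name polyA RNA. The authors deposited raw read counts made with featureCounts 1.6.4 on GENCODE M18, on the strand of the gene, per the file headers; HISAT2, cutadapt and GRCm38.p5 come from the submitters' processing notes. Options that keep multi-mapping or multi-gene reads do not appear in the recorded commands. Symbols came from GENCODE M21 (99.72% of genes).

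Counts were fitted with edgeR 4.0.16 in R 4.3.3 (filterByExpr, TMM, robust quasi-likelihood, genotype only) with Benjamini-Hochberg adjustment over all 25076 genes and a threshold of 0.05. The gene table's sizes and factors also scaled the upstream regions. Also tried were size factors by median of ratios, DESeq2 1.42.0, TMM on genes of at least 10 CPM, no filter, 1 CPM in 2 libraries, a replicate block and each library left out.

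Members and gene lists were chosen with earlier results of these data known. Named were the 9 members, minor snRNA genes, up to 4 genes per list by smallest adjusted p, up to 3 hosts each way at 5 CPM or more, and the 5 nearest genes. In the list of other minor spliceosome factors all tested genes were named. U12-type introns had been planned from a genome and were read from transcripts. Replicates differed beyond sampling noise (chi-square per degree of freedom 4.54 in WT, 5.08 in KO).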

Additional observations from a re-analysis of the deposited data

How the results depend on the processing

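The rise of Rnu11 (1.51) was 1.67 with scaling on genes of at least 10 CPM, 1.41 with DESeq2, and 1.35 to 1.66 with 1 library left out. Of the protein genes 6 passed, 4 with the 10 CPM scaling and 5 to 6 with 1 library left out. Of the 87 genes in other lists 58 passed, 36 with the 10 CPM scaling and 44 to 56 with 1 library left out. Of the hosts 18 passed, 15 to 20 with 1 library left out, and 2 where a branch motif was also required, which leaves 5 genes. Of the upstream regions 0 passed, and 0 to 2 with 1 library left out. For the other moves the cause was not tested. Values of single genes under an alternative kept their side of the threshold in 392 cases and lost the call in 18, and no called value changed sign. Genes called higher in all numbered 2906, but 443 with DESeq2, 1937 with no filter, 1537 without WT replicate 2, 1521 without KO replicate 1 and 1324 without KO replicate 2. Replicate numbers are not stated to pair the libraries, and deviations of same-numbered libraries correlated at 0.002; with a replicate block the values were 1.52 for Rnu11 and 6, 61, 19 and 0 calls in the same order. Thin reading limits Rnu12, the vault and telomerase RNAs and the upstream regions.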

Other observations

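Paired TATCCTT motifs within 20 bases were present on the sense strand of 21 tested genes, of which 3 were higher, 7 lower and 11 not called, with a median log2 fold change of -0.10, beside 11.6% higher, 20.3% lower and a median of 0.05 over all tested genes. Among them were Tbp, the TATA-binding protein (log2 fold change -0.48 ± 0.0598, adjusted p = 1.68e-06), Ell2, an elongation factor (-0.45 ± 0.0825, adjusted p = 0.000201), and Dhx15, itself a minor spliceosome factor (-0.17 ± 0.0594, adjusted p = 0.0295, edgeR). These genes were named after their values were seen. The 21 also include the members Rnpc3, called lower, and Snrnp48, not called. Most of the lower ones lay at the level of the protein genes, where 45.6% of tested genes fell and 8.87% rose. Of the higher ones, Slc8a1, a sodium-calcium exchanger, had 860 and 974 reads in WT and 809 and 684 in KO (0.50 ± 0.115, adjusted p = 0.00336), while Kynu and Enam had fewer than 40 reads in each library. Whether any of these motifs is used in testis was not tested.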
